A study of Mus musculus with 8 samples.

Results

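The proteasome subunit genes were taken as every array gene name made of Psm, a letter from a to g and a number, control spots excluded. This gave 49 gene names of 36163 on the array, measured by 61 of 55681 probes. Of these, 19 are core names (Psma and Psmb), 21 are regulatory names (Psmc and Psmd) and 9 are activators, an inhibitor and assembly factors (Psme, Psmf and Psmg). The rule used names only and no measured value. One of the names, Psmc3ip, is no subunit, since it encodes a factor of meiotic recombination, and 3 further Psmd names (Psmd5, Psmd9, Psmd10) encode assembly chaperones. For this reason values are also given for the constitutive subunits alone, which are 14 of the core and 17 of the regulatory particle.

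The proteasome degrades proteins that carry ubiquitin chains. Its core particle is a barrel of stacked alpha and beta rings, in which a few beta subunits hold the cutting sites. The regulatory particle caps the barrel: a base of ATPases and scaffold proteins unfolds the substrate, and a lid removes the ubiquitin. Under interferon, and constitutively in cells of the immune system, the cutting subunits are exchanged for inducible ones, which form the immunoproteasome. Most subunits are needed in every cell, and their mRNAs are short for the core and longer for the large scaffold proteins of the base.

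E14Tg2A, a mouse ES line of strain 129/Ola, was kept undifferentiated (ES, 0 days in vitro) or neuralized in vitro to epiblast-like aggregates (ELA, 2 days), neural progenitor cells (NPC, 6 days) and neural precursors (NPC/Neu, 10 days). No group carried an engineered allele or a drug according to the labels. At each stage RNA bound to Argonaute (Ago), the protein that carries microRNAs in the silencing complex, was precipitated from the cytosolic fraction with a pan-Ago antibody and hybridized to 1 array, and total RNA was hybridized to another. Each of the 8 arrays received RNA pooled from 3 experiments, so no value has a replicate and no p-value is given.

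Values are log2 signals after background correction and quantile normalization. E is the log2 Ago-RNA signal minus the log2 total RNA signal of the same stage, so an E of 1 means a ratio of Ago-RNA to total RNA that is 2-fold above that of the array as a whole. E is relative, since normalization gives every array the same distribution. The only error that could be measured is that between spots: from the 203 repeatedly printed probes that were bright on all arrays, 1 spot SD of E was 0.22 in ES, 0.22 at ELA, 0.21 at NPC and 0.23 at NPC/Neu. It covers spotting and scanning, not the variation between cultures or precipitations.

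The ES Ago-RNA array stood apart in raw brightness, with an upper quartile of mean spot signal of 3039 against 1060 to 1774 on the other arrays. Markers of the stages followed the labels in part: the log2 total RNA signal of Pou5f1, a pluripotency factor, was 15.21, 14.76, 7.98 and 8.31 from ES to NPC/Neu. That of Fgf5, an epiblast marker, was highest at ELA (14.78), while Fabp7, a marker of neural progenitors, went from 6.96 in ES to 17.38 at NPC/Neu. Of neuron markers, Tubb3 had 12.95 in ES and 17.01 at NPC/Neu, and Stmn2 had 14.44 and 15.73. Other markers did not follow their stage. Eomes, an epiblast marker, was 9.29 at ELA and highest at NPC/Neu (11.33). Of the ES markers, Sox2 had 13.75, 13.13, 13.64 and 13.87, and Esrrb had 15.19, 12.45, 9.59 and 11.55. Among the proteasome probes, 57 to 59 of 61 were well above background on each array. By gene, 48 of 49 names in ES, 47 at ELA, 46 at NPC and 46 at NPC/Neu had an Ago-RNA signal above 7.82, the limit set from the dimmer of 2 fitted signal components. The names below it were Psmb11 at every stage, Psma8 after ES and Psmb8 from NPC onward.

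In ES cells, mRNAs of the core and of the regulatory particle lay on opposite sides of the array median. Core subunit mRNAs were depleted in Ago-RNA, and most regulatory subunit mRNAs were enriched. Over the 14 constitutive core subunits the median E was −0.76, with 13 below 0 and 1 above. Over the 17 constitutive regulatory subunits it was 0.78, with 5 below 0 and 12 above. For comparison, the median E over all gene names was 0.03. The sign of the regulatory median depended on scaling: with each array scaled to its 75th percentile, it was −0.05, the core median −1.29 and the median of all gene names −0.57. All 14 core values lay below the regulatory median, and 11 of 17 regulatory values lay above the highest core value, which was 0.18 for Psmb4. With all names of the rule included, the medians were −0.74 for 19 core names and 0.33 for 21 regulatory names.

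**Figure D1:**
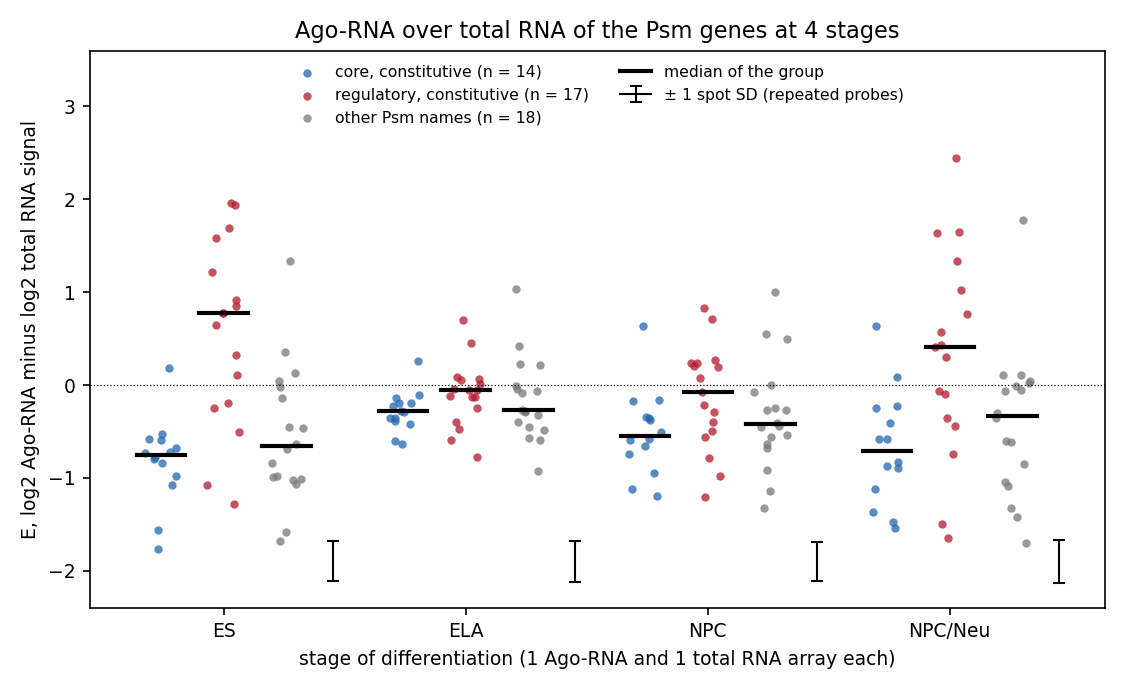
E (log2 Ago-RNA minus log2 total RNA signal, vertical axis) of each Psm gene at the 4 stages (horizontal axis), for constitutive core subunits (blue), constitutive regulatory subunits (red) and the other Psm names (gray). Each point is 1 gene, black bars are medians and the separate error bars show 1 spot SD on either side. The core median minus the regulatory median is −1.54 in ES, −0.23 at ELA, −0.47 at NPC and −1.12 at NPC/Neu.

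The highest values in ES belonged to the large scaffold proteins of the base and to lid subunits. Psmd2 (chr16:20651725-20663487 in mm9, plus strand), a base scaffold on which ubiquitin shuttle proteins dock, had log2 total RNA signals of 15.49, 15.45, 15.53 and 15.44 from ES to NPC/Neu. Its Ago-RNA signals were 17.45, 15.91, 16.24 and 17.89. The total RNA of Psmd2 thus stayed within 0.09 between consecutive stages, and its Ago-RNA was high at both ends of the series, which gave E values of 1.96, 0.46, 0.71 and 2.45. Psmd1 (chr1:87960962-88059363), the other large scaffold of the base, had total RNA signals of 15.88, 15.85, 15.68 and 15.74 and Ago-RNA signals of 17.57, 15.91, 15.88 and 17.38. Its E was 1.69, 0.06, 0.20 and 1.65, again high in ES and at NPC/Neu and near 0 between them. The single probe of Psmd1 lies within the span of the gene but was not placed in a coding transcript.

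Psmd3 (chr11:98543868-98557293), a structural subunit of the lid, had total RNA signals of 15.94, 16.48, 16.07 and 16.16. On the Ago-RNA arrays it read 17.88, 16.57, 16.90 and 17.80, and E was 1.94, 0.08, 0.82 and 1.63. Unlike the scaffolds of the base, it also had a higher total RNA signal at ELA, by 0.54. Psmc5 (chr11:106117468-106124434), one of the ATPases that form the unfolding ring, had total RNA signals of 15.30, 15.21, 14.86 and 15.08 and Ago-RNA signals of 16.87, 15.23, 14.94 and 15.49. Its E of 1.58 in ES was followed by 0.01, 0.08 and 0.41, so that it did not return at NPC/Neu to its level in ES as Psmd1 and Psmd2 did. Psmd12, a lid subunit, had E values of 1.22, −0.05, 0.19 and 1.02. With 75th percentile scaling the E in ES was smaller, at 1.06 for Psmd2, 0.71 for Psmd1, 0.78 for Psmd3, 0.71 for Psmc5 and 0.69 for Psmd12.

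At the other end stood core subunits. Psmb1 (chr17:15612685-15635240, minus strand), a noncatalytic beta subunit, had total RNA signals of 15.46, 15.37, 15.65 and 15.44, and Ago-RNA signals of 13.69, 15.01, 15.49 and 14.55. Its Ago-RNA signal in ES was the lowest of the 4, and E was −1.76, −0.36, −0.16 and −0.89. Psma6 (chr12:56485209-56519441), an alpha subunit, had total RNA signals of 15.43, 15.42, 15.42 and 15.21 against Ago-RNA signals of 13.86, 14.81, 14.46 and 13.67. E was −1.56, −0.60, −0.95 and −1.54. Psma7, an alpha subunit, had E values of −1.07, −0.19, −0.36 and −1.12, which followed the same course at a smaller distance from 0.

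For the 4 of these genes whose probes all lie in coding sequence (Psmb1, Psma6, Psmc5, Psmd12), the probes are shown as the stretches of mRNA that were measured. They are given 5′ to 3′ in the sense of the mRNA, as the array files list them, and the coordinates are mm9, with the outer ends given where a probe spans an intron. The first pair belong to the core subunits with the lowest E in ES, and the next to an ATPase with a high one. The last pair are both probes of Psmd12, which start at bases 288 and 1380 of its transcript and had E values in ES of 1.02 for the upstream and 1.41 for the downstream probe.
Psmb1, chr17:15630098-15631393: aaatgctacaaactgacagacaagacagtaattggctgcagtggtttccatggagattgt
Psma6, chr12:56511127-56511186: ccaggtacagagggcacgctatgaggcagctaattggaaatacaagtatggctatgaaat
Psmc5, chr11:106124192-106124376: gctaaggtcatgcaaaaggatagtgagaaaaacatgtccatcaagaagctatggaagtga
Psmd12, chr11:107347092-107347728: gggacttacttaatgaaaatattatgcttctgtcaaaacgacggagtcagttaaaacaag
Psmd12, chr11:107358963-107359022: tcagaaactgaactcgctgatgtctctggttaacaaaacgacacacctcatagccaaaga

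Within the regulatory particle the subunits were not uniform. The 3 base scaffold and ubiquitin receptor genes (Psmd1, Psmd2, Psmd4) had a median E in ES of 1.69 and none below 0. Of the 6 ATPases, 5 were above 0 and their median was 0.82. The exception was Psmc6, with total RNA signals of 13.98, 14.07, 14.58 and 14.32 and E values of −1.08, −0.78, −1.21 and −1.49. The lid was split, with 4 of 8 genes above 0, a median of −0.04 and values from −1.28 for Psmd8 to 1.94 for Psmd3. Psmd8 had E values of −1.28, −0.60, −0.98 and −1.65, below 0 at each stage like those of Psma6. Psmd14, the lid enzyme that cleaves ubiquitin from the substrate, had an E of 0.11 in ES, which is less than 1 spot SD from 0. The lowest value among the regulatory names, −1.68, was that of Psmc3ip, which is no subunit.

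The core was more uniform. All 7 alpha subunits were below 0 in ES, between −1.56 and −0.58 (Psma3). Of the 7 beta subunits, 6 were below 0. The exception was Psmb4, with total RNA signals of 16.68, 16.48, 16.40 and 16.56, Ago-RNA signals of 16.86, 16.74, 17.04 and 17.19 and E values of 0.18, 0.26, 0.64 and 0.63. Only from NPC onward did this exceed 2 spot SDs. The constitutive cutting subunits lay among the others: E in ES was −0.53 for Psmb5 (chymotrypsin-like activity), −0.78 for Psmb6 (caspase-like activity) and −0.72 for Psmb7 (trypsin-like activity).

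Counts past a log2 value of 1 were close to the share among expressed genes. In ES, 6 of 49 names had an E of at least 1 (Psmc5, Psmd1, Psmd2, Psmd3, Psmd12, Psme4), where 6.56% of all gene names did, and 10 had an E of at most −1, where 7.34% did. Most names on the array are dim and cannot show a ratio, however. Among the 14712 gene names above the signal limit in total RNA at every stage and measured in ES, 13.1% had an E of at least 1 and 15.4% an E of at most −1. The proteasome genes as a whole were therefore about as dispersed as other expressed genes, with an SD of E in ES of 0.96 against 0.97. By particle, 0 of 19 core names and 5 of 21 regulatory names were at or above 1, and 3 of each were at or below −1. With 75th percentile scaling 2 of the 49 names were at or above 1 and 19 at or below −1.

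The separation of the particles was much smaller at ELA. The median E was −0.28 for the constitutive core and −0.06 for the constitutive regulatory subunits. Beyond 1 in absolute value lay 1 of 49 names on the high side (background 2.43%) and 0 on the low side (background 2.12%), the single name being Psme4. Among expressed gene names these shares were 3.87% and 3.19%. The SD of E over the 49 names was 0.36, and over expressed gene names it was 0.56, so that smaller ratios at ELA were seen over the arrays at large. At NPC the medians were −0.54 and −0.07. Quantile normalization within each RNA type turned the regulatory median at these stages to 0.19 and 0.29. At NPC, 1 name was at or above 1 (background 3.59%, or 6.43% of expressed gene names). At or below −1 were 5 (background 3.89%, or 7.65% of expressed gene names). At NPC/Neu the medians were farther apart again, with −0.71 for the core and 0.41 for the regulatory particle. There, 6 names were at or above 1 (background 7.34%) and 11 at or below −1 (background 7.78%). The shares of expressed gene names were 12.9% and 15.3%.

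Between ES and ELA the median change in E had opposite signs for the particles. In either direction, the change exceeded 1 spot SD for 10 of 14 core and 13 of 17 regulatory constitutive subunits. E was higher at ELA for all 14 constitutive core subunits (13 with the brightest probe of each gene), by a median of 0.47, and lower for 12 of 17 constitutive regulatory subunits, with a median of −0.77. With 75th percentile scaling these medians were 0.90 and −0.24, beside 0.32 for all gene names. The largest differences were −1.86 for Psmd3, −1.63 for Psmd1 and −1.56 for Psmc5, each over 5 times the spot SD of such a difference (0.31). In all, 6 names had a change of at most −1, and each of the 6 was regulatory (Psmc3, Psmc5, Psmd1, Psmd2, Psmd3, Psmd12). The background was 4.41% of all gene names and 7.99% of expressed ones. A change of at least 1 was seen for 2 names, Psmb1 (1.41) and the assembly chaperone Psmg3 (1.06). Here the background was 5.14% of all gene names and 9.90% of expressed ones. With 75th percentile scaling 0 names had a change of at most −1 and 8 a change of at least 1. The regulatory subunits that went the other way were Psmc1, Psmc6, Psmd7, Psmd8 and Psmd11. All of these but Psmc1 had an E below 0 in ES, as most core subunits did. Psmd6, also below 0 in ES (−0.25), was lower at ELA (−0.40). Over expressed gene names the SD of E was 0.97 in ES and 0.56 at ELA, so E lay nearer to 0 at ELA in general. The part of this in the changes by particle was not tested.

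**Figure D2:**
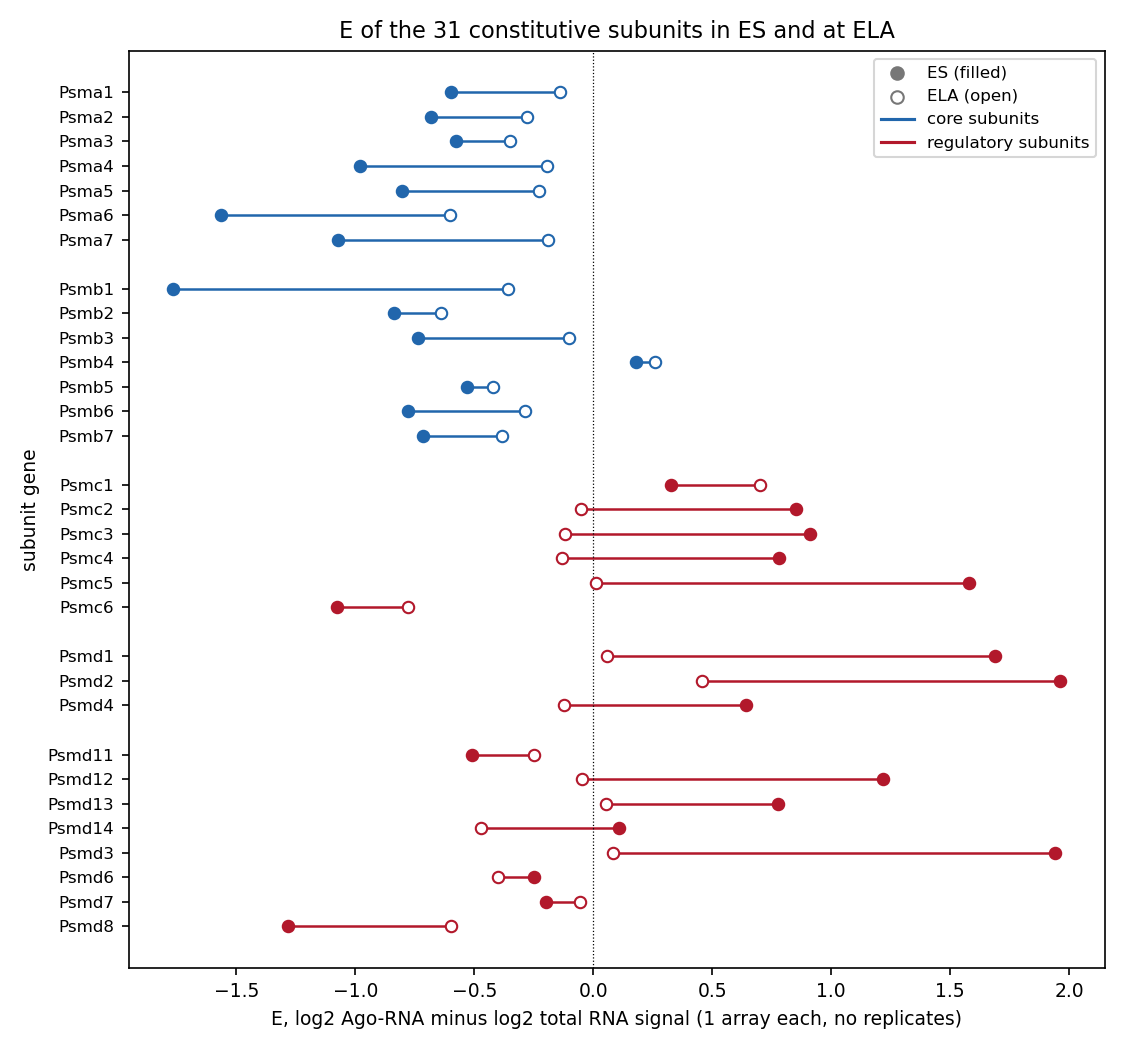
E (log2, horizontal axis) of the 31 constitutive subunits in ES (filled) and at ELA (open), grouped from the top as alpha, beta, ATPase, base scaffold and lid genes. Every core gene (blue) moves to the right, and 12 of 17 regulatory genes (red) move to the left.

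After quantile normalization the changes from ES to ELA were larger in median on the Ago-RNA than on the total RNA arrays. Total RNA between ES and ELA differed by a median of −0.15 for the constitutive core and −0.12 for the constitutive regulatory subunits. Over the same transition the Ago-RNA signal differed by a median of 0.34 for the core and −0.93 for the regulatory subunits. Medians over all gene names were 0.01 in total RNA and 0.02 in Ago-RNA. With 75th percentile scaling the Ago-RNA medians were 0.69 for the core, −0.39 for the regulatory subunits and 0.48 for all gene names. The total RNA medians were then −0.19, −0.25 and 0.15. With that scaling the core differed from all gene names on both kinds of array, and by more in total RNA than in Ago-RNA. Psmd1, for example, had a total RNA difference of −0.03 and an Ago-RNA difference of −1.66, and Psmb1 had −0.09 and 1.32. For Psmd3, with the largest change in E, both differed, by 0.54 and −1.32. The ES Ago-RNA array, the brightest of the 8 before normalization, enters each of these Ago-RNA values. Its part in them was not tested.

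**Figure D3:**
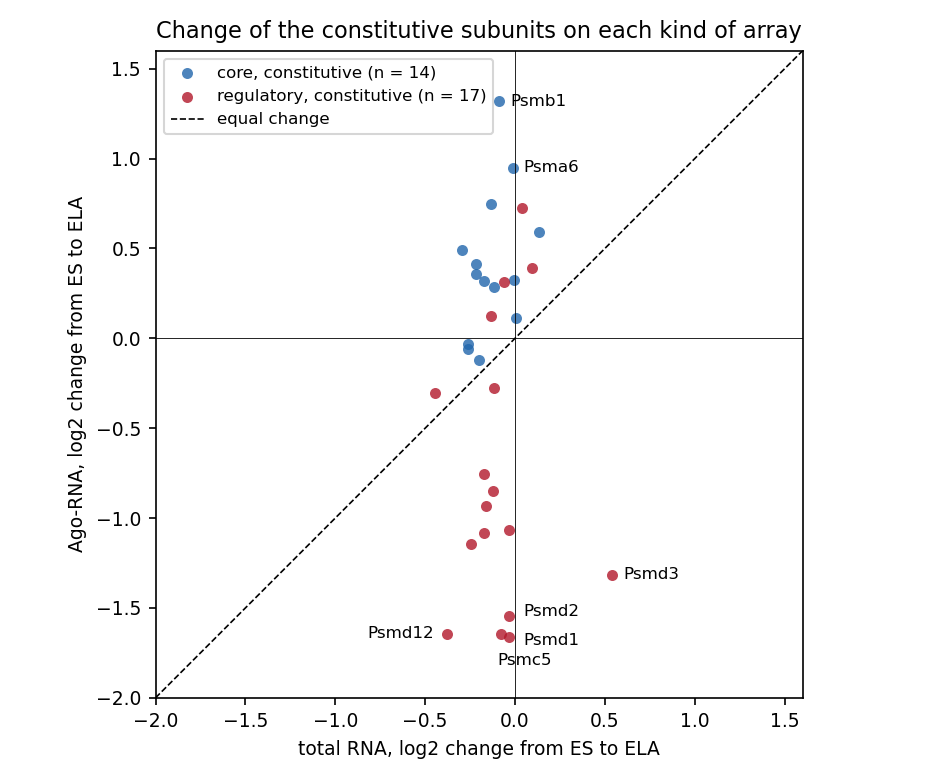
Log2 change from ES to ELA in total RNA (horizontal axis) and in Ago-RNA (vertical axis) of the constitutive core (blue, 14 genes) and regulatory (red, 17 genes) subunits, with 1 point per gene and a dashed line where both changes are equal. Total RNA changes lie between −0.45 and 0.54, whereas Ago-RNA changes range from −1.66 for Psmd1 to 1.32 for Psmb1.

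At the later transitions the shifts were smaller. From ELA to NPC no name passed a change in E of 1 in either direction (background 1.89% of all gene names upward and 2.45% downward). The largest were −0.99 for the ATPase Psmc1, −0.93 for the alpha subunit Psma4 and −0.82 for Psmb7. The E of Psmc1 was 0.33, 0.70, −0.29 and −0.06 from ES to NPC/Neu, and both of its probes had their highest E at ELA. Among the ATPases Psmc6 also had its highest E there. From NPC to NPC/Neu 3 names passed 1 (background 1.71%) and 0 passed −1 (background 3.00%). The 3 names were Psmd2 (1.73), Psmd1 (1.45) and Psmd13 (1.41), a lid subunit whose E was 0.78, 0.05, −0.07 and 1.34. At that step 14 of 17 constitutive regulatory subunits had a higher E, with a median of 0.34, and 10 of 14 core subunits a lower one, with a median of −0.12 that turned to 0.05 with 75th percentile scaling. The criteria of the study for mRNAs released from or loaded on Ago, which ask for an E of at least 2 at one stage, at most 0.5 at the other and a change of at least 1.5, were met by 0 of 61 proteasome probes at any transition. Between ES and ELA 100 gene names met the criteria for release and 68 those for loading. From ELA to NPC the numbers were 47 and 16, and from NPC to NPC/Neu 16 and 20. With so few of 36163 gene names, 0 of 61 probes says little about the proteasome genes. From NPC to NPC/Neu Psmd2 met the criteria for loading except that its E at NPC, 0.71, was above 0.5. For release between ES and ELA, Psmd2 and Psmd3, with 1.96 and 1.94 in ES, were just under the limit of 2.

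E was higher for longer transcripts over the array at large, so the particles were compared with genes of like length. The length taken for a gene was that of its transcript with the longest coding sequence, which need not be the one a probe measured. The constitutive core transcripts had a median length of 1101 bases and the regulatory ones of 1785 bases. Over the 31 constitutive subunits Spearman's rho of E in ES and length was 0.56, and over 10617 expressed gene names with a length it was 0.63. Both are descriptions across genes measured on the same arrays. Among the 1163 expressed gene names with transcripts of at least 1000 and under 1500 bases the median E in ES was −0.47. The 7 core subunits of that length had −0.80 and the 4 regulatory subunits had 0.71. Among those 4 is Psmd4, with a length of 1276 bases. Its probe starts at base 1697 of the longest transcript it matches, so the length class of the RNA it measured is uncertain. After subtraction of the median of the length class, the regulatory subunits were still at 1.05 in ES, with 14 of 17 above their class, and the core subunits at −0.22, with 5 of 14 above. At NPC/Neu the values were 0.73 for the regulatory and −0.50 for the core subunits. At ELA they were 0.10 and −0.11. At NPC the regulatory subunits were at −0.07, with 8 of 17 above their class, and the core subunits at −0.34, with 3 of 14 above.

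**Figure D4:**
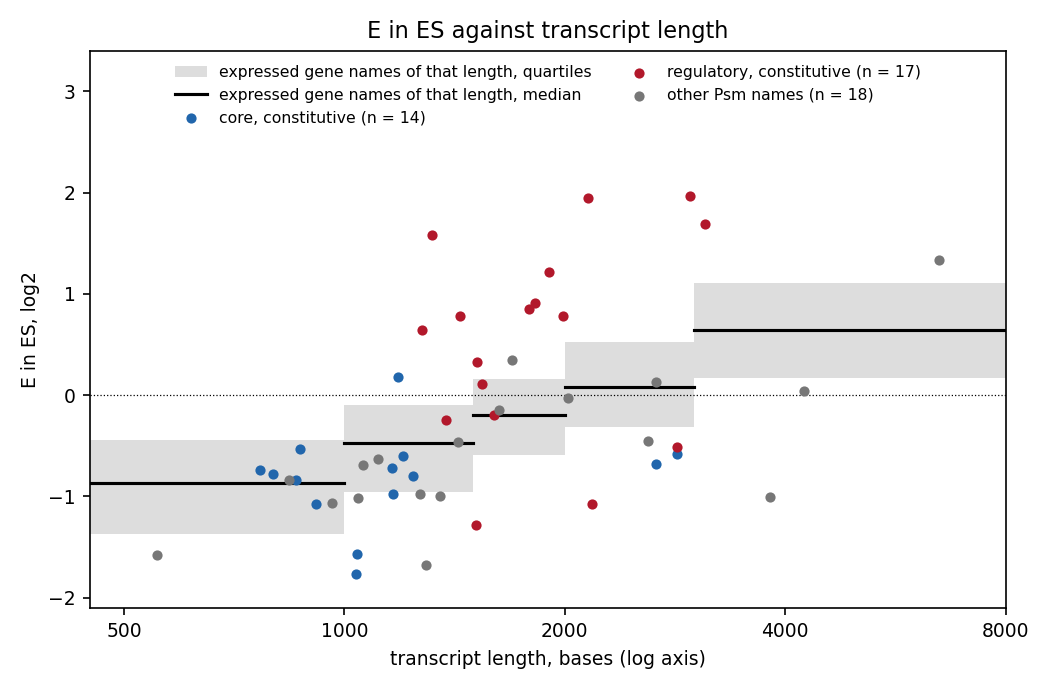
E in ES (log2, vertical axis) against transcript length in bases (horizontal, log axis), with 1 point per Psm gene, colored as core (blue), regulatory (red) or other (gray). Black lines are the medians and gray boxes the quartiles of all expressed gene names in 5 length classes, and most regulatory genes lie above the box of their class.

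Total RNA of the constitutive subunits differed by less than 1 between consecutive stages. Over the whole series the steps added up for some lid subunits. Psmd12 had total RNA signals of 14.56, 14.18, 13.74 and 13.50, and Psmd7 had 14.77, 14.32, 14.05 and 13.92. Over the 4 stages, Psmb5 had log2 total RNA signals of 16.59, 16.59, 16.22 and 16.26 and Ago-RNA signals of 16.06, 16.17, 15.63 and 16.03. Psmb6 had 17.36, 17.19, 17.30 and 17.32 in total RNA and 16.59, 16.90, 16.92 and 17.07 in Ago-RNA. Psmb7 had 14.72, 14.72, 14.81 and 14.70 in total RNA and 14.01, 14.33, 13.61 and 13.34 in Ago-RNA, the lowest being at NPC/Neu. None of the 49 names had a total RNA change of at least 1 at any transition, where the background was 3.04% from ES to ELA, 7.13% from ELA to NPC and 3.65% from NPC to NPC/Neu. Changes of at most −1 were seen for 2 names at the first transition (background 3.09%), 3 at the second (background 6.62%) and 1 at the third (background 2.69%). All of them were tissue-specific core subunits.

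The inducible subunits of the immunoproteasome had lower signals as differentiation went on. Psmb8 (chr17:34334666-34338399), the inducible counterpart of Psmb5, had log2 total RNA signals of 10.98, 9.01, 7.10 and 6.90, and 10.84, 8.998, 7.60 and 6.84 on the Ago-RNA arrays. ES cells exceeded ELA 3.94-fold and NPC 14.7-fold in total RNA. At NPC/Neu the probe was not well above background, so that ES exceeded NPC/Neu at least 16.9-fold, the bound being the higher of the probe's own signal and the dimmest signal well above background on that array. Psmb10 (chr8:108459628-108462292, minus strand), which replaces Psmb7, had total RNA signals of 15.62, 14.69, 12.89 and 12.42 and Ago-RNA signals of 14.64, 14.37, 12.48 and 11.80, with a 9.22-fold difference from ES to NPC/Neu in total RNA. Psmb9, which replaces Psmb6 and whose probe lies at chr17:34319174-34319233, had 10.88, 10.15, 9.07 and 7.92 in total RNA, a 7.75-fold difference, and 9.88, 9.70, 8.82 and 7.87 in Ago-RNA. All 3 were lower at each later stage than at the one before, on both kinds of array, whereas the constitutive counterparts stayed within 0.37 between consecutive stages in total RNA. In these mixed cultures fewer cells of a type and less RNA per cell cannot be told apart.

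**Figure D5:**
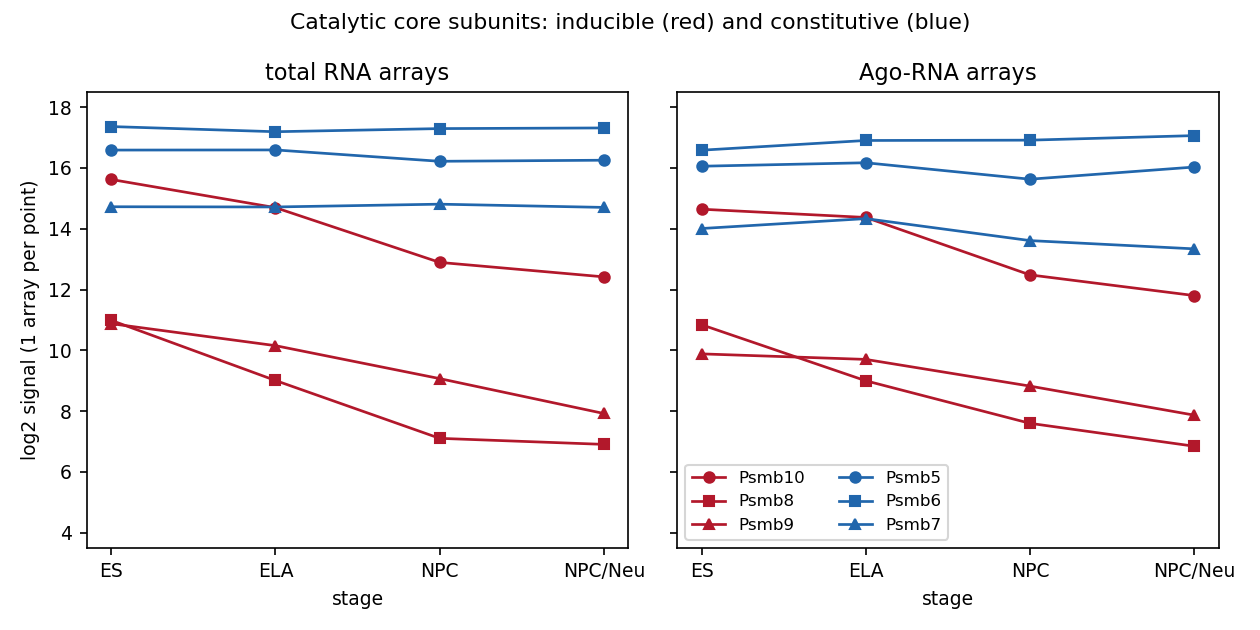
Log2 signal (vertical axis) of the inducible cutting subunits Psmb8, Psmb9 and Psmb10 (red) and of their constitutive counterparts Psmb5, Psmb6 and Psmb7 (blue) at the 4 stages (horizontal axis), on total RNA arrays (left) and Ago-RNA arrays (right), with 1 array per point. The red lines descend on both panels, Psmb8 from 10.98 to 6.90 in total RNA. Heights of different probes are not comparable with each other.

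E of the inducible subunits moved less than their levels. It was −0.14, −0.01, 0.49 and −0.06 for Psmb8, −0.99, −0.45, −0.25 and −0.05 for Psmb9, and −0.98, −0.32, −0.41 and −0.62 for Psmb10. The last values of Psmb8 come from a probe that was not well above background on either array at NPC/Neu. At NPC its signals of 7.10 and 7.60 were also below the signal limit of 7.82. Those of Psmb9 at NPC/Neu, 7.92 and 7.87, were just above that limit. Of the other tissue-specific subunits, Psma8, which belongs to the proteasome of the testis, had total RNA signals of 7.87, 6.71, 6.74 and 6.41 and Ago-RNA signals of 8.22, 7.13, 6.47 and 6.42, and in total RNA it was well above background in ES only. ES exceeded ELA at least 1.88-fold. Psmb11, the subunit of the thymus, read 6.47 to 6.54 in total RNA and 6.45 to 6.58 in Ago-RNA and was not well above background on any array.

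Other genes of interferon response and antigen presentation did not share a single course. Of 10 listed, 7 had a lower total RNA signal at ELA than in ES, with a median difference of −0.46 over the list. Tapbp, which loads peptides on class I molecules, was the one with a total RNA change of at most −1 (−1.18), where the background was 3.09%. The difference was −0.79 for Tap1, a peptide transporter, and −0.64 for Nlrc5, an activator of class I genes. Irf1, a transcription factor induced by interferon, had total RNA signals of 10.73, 9.78, 8.49 and 8.45, and Tap2, the partner of Tap1, had 11.27, 10.49, 9.58 and 9.06. Both were lower at ELA than in ES and lower again at NPC. In contrast, H2-K1, a class I molecule, had 12.21, 12.34, 13.62 and 13.68. Among markers of blood and immune cells, total RNA signals were 6.65 to 7.06 for Ptprc and 6.62 to 6.84 for Emr1, below the signal limit of 7.82 at each stage, although the probe of Emr1 was well above its local background. Cd68, a marker of macrophages, had 8.21, 7.77, 7.00 and 7.20, above that limit in ES only and lower at NPC and NPC/Neu, and its part in the course of the inducible subunits was not tested. Itgam read 9.88 to 10.15 and Cd3e read 10.48 to 11.11.

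The activators, which open the barrel in place of the regulatory particle, differed among themselves. Psme4, the large nuclear activator, had total RNA signals of 11.83, 11.92, 11.18 and 11.27 and Ago-RNA signals of 13.16, 12.95, 12.18 and 13.04. With E values of 1.33, 1.03, 1.01 and 1.77 it was the one proteasome gene at or above 1 at all 4 stages. It also has the longest transcript of the set (6491 bases), and its 2 probes, both in coding sequence, gave 1.12 and 1.55 in ES. Psme1, which forms the interferon-inducible activator with Psme2, had E values of −0.63, −0.28, −0.54 and −1.04. Its probe is printed in 10 spots on each array, which gave SDs between 0.08 and 0.26 for its log2 signal. Psme2 had E values of −1.07, −0.27, −0.44 and −0.85 over 3 probes, of which 2 match both Psme2 and the copy Psme2b-ps and 1 matches that copy alone, so that its values are uncertain. Psme3, the activator of the nucleus, had 0.13, 0.22, 0.55 and −0.01. Psmf1, an inhibitor of the core, had total RNA signals of 11.81, 11.54, 11.31 and 11.10 and E values of −1.01, −0.07, −0.67 and −1.42.

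The assembly chaperones were on the same side of 0 as most of the core in ES. All 7 (Psmd5, Psmd9, Psmd10 and Psmg1 to Psmg4) were below 0 in ES, with a median E of −0.69. The lowest was Psmg4 (−1.58), a partner in alpha ring assembly with the shortest transcript of the set (554 bases), and the highest was Psmd5 (−0.02). In total RNA all 7 were lower at ELA than in ES, with a median difference of −0.17, which is less than 1 spot SD (0.21). So were 40 of all 49 names, with a median of −0.14. All 7 were also lower at NPC/Neu than at NPC, as were 36 of the 49. The largest difference of the 7 from NPC to NPC/Neu was that of Psmg2 (−0.85), which was exceeded among all 49 names by those of Psmb9 (−1.15) and Psmc3ip (−0.95).

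Genes around the proteasome, from 3 lists with 31 names measured, had a median E in ES of 0.37. An E of at least 1 was found for 6 and an E of at most −1 for 3, where the shares were 6.56% and 7.34% of all gene names and 13.1% and 15.4% of expressed ones. Among those above 1 was Vcp, the ATPase that extracts ubiquitinated proteins (2.43). Among other parts and assembly factors of the particle Ube3c, a ubiquitin ligase bound to it, had the highest value (1.13), and Rps27a, a ubiquitin fusion gene, had the lowest of the ubiquitin and shuttle genes (−0.97). The lowest were Shfm1, a small lid subunit (−1.54), the deubiquitinase Uchl5 (−1.35) and Pomp, the maturation factor of the core (−1.08). Of the proteins that dock on the regulatory particle, Adrm1, a ubiquitin receptor, had E values of 0.33, −0.29, −0.10 and 0.13, and the deubiquitinase Usp14 had 0.72, 0.04, −0.02 and 0.59. Among 8 regulators of subunit genes, E in ES lay between −0.51 (Nfyc) and 1.26 (Ddi2). Nfe2l1, which drives subunit genes when proteasome activity is low, had total RNA signals of 9.32, 9.62, 9.02 and 9.26. Nfe2l2, its relative in the oxidative stress response, had 13.42, 13.45, 11.77 and 11.75, a difference of −1.67 from ELA to NPC.

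Because Nfe2l1 and Nfe2l2 act through the antioxidant response element, RefSeq promoters (GRCm38.p6, 250 bases before to 50 after each gene start) were searched on both strands for the letters TGACNNNGC. Of 49 names, 41 matched the table, with 44 promoters. The letters occurred in 6 of 44, those of Psmb5, Psmb6, Psmc6, Psmd9, Psmd12 and Psme4, and in 12.4% of all 32851 promoters. The letters CCAAT were found in 15 of 44 and in 37.4% of all. Both shares of the proteasome genes were near those of all promoters. Windows of 30 bases are shown in the direction of the gene, with the match in capitals, for the 2 cutting subunits and, because its E was high, for Psme4.
Psmb5, chr14:54618023-54618052: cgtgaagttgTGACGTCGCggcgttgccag
Psmb6, chr11:70525338-70525367: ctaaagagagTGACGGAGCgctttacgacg
Psme4, chr11:30771758-30771787: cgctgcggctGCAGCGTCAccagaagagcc
For the inducible subunits the letters TTCNNNGAA, the site bound by factors activated by interferon gamma, were searched after the values were seen. They occurred in 3 of 44 promoters (Psmb8, Psmd2, Psmg1) and in 8.30% of all. In Psmb8 they lie at −97 to −89 from the gene start.
Psmb8, chr17:34198088-34198117: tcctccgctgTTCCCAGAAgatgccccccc
The letters GAAANNGAAA, the core of the other interferon site, occurred in 5 of 44 promoters (Psmb3, Psmd4, Psmd9, Psme1, Psmg4) and in 3.44% of all. Those of the inducible subunits Psmb8 and Psmb9 were not among the 5. A match is a description of the letters and no evidence of binding.

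Probes of the same gene differed at some stages by more than the spot SD. For 10 of the 11 genes with more than 1 probe, the probes differed in E in ES by 0.05 to 0.60, and for Psme2 by 1.16. The 2 probes of Psmb5 gave −0.83 and −0.23, and those of Psmc1 gave 0.03 and 0.62. At NPC/Neu the probes of 5 genes differed by 0.81 to 1.08, and those of Psmb5 (−0.76 and 0.31) and Psmc1 (−0.52 and 0.40) lay on opposite sides of 0. Of the 61 probes, 31 had their middle in coding sequence and 24 in the 3′ UTR, and 60 lay within the span of the gene of their name. In coding transcripts 5 were not placed: the only probes of Psma2, Psmb6, Psmd1 and Psmd8, and 1 of the 2 of Psmc1. The probe of Psma5 also matches the copy Gm8394, so its values are uncertain.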

How the data were processed

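Total RNA and Ago-RNA of E14Tg2A cells were measured on 8 one-color Agilent arrays of 1 slide, with 1 array for each stage and RNA type. The authors deposited spot intensity as written by Feature Extraction (10.7.3.1 in the file headers, 9.1 in the submitters' processing notes), before normalization between arrays. The labels state that 50 ng of RNA were labeled, the methods 200 ng.

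For background correction, limma 3.58.1 (R 4.3.3) was run on mean and local background intensity by its normexp method with an offset of 50. Spots marked irregular were dropped, quantile normalization was applied to all 8 arrays on the log2 scale, and probes of a gene were averaged. The signal limit was fitted with mclust 6.1.1. Spot SDs come from 399 probes printed 10 times, of which 203 were bright. Probes were placed in GENCODE transcripts of mm9 by exact match (56 of 61 placed). Python 3.11.15 with pandas 2.3.3 was used, and the procedure was tested on simulated data. The number of arrays limits the precision.

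The genes, lists and comparisons were chosen with earlier results of these data known. Values on every array are given for the cutting, tissue-specific, activator and inhibitor genes, and for the 3 most extreme in E in ES within each particle, in total RNA change and in change of E, and for some of these E, or total RNA and E, alone are printed. Of the neighboring genes, 6 named ones and the extremes of each list are given. Alternatives were offsets of 16 and 0, the processed intensity (quantile or 75th percentile scaling), quantile normalization within each RNA type, only probes well above background, the brightest probe, and constitutive subunits only. Added after seeing the data were subunits with transcripts of at least 1000 and under 2000 bases, and Psme2 without the probe of its copy. Some genes of the lists are not reported here by name.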

Additional observations from a re-analysis of the deposited data

How the results depend on the processing

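The lower E of core than of regulatory genes in ES and at NPC/Neu kept its direction under every alternative run, with differences of medians in ES between −1.06 and −1.54. The reported −1.06 in ES became −1.36 and the −0.62 at NPC/Neu became −0.88 with the brightest probe of a gene. With constitutive subunits only, the difference was −1.54 in ES, −0.47 at NPC and −1.12 at NPC/Neu, and with those of at least 1000 and under 2000 bases it was −1.51, −0.44 and −1.23. In the latter set the median E in ES, −0.53 over all 49 names, turned to 0.11, since fewer core genes remain.

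Scaling to the 75th percentile, which shifts dim and bright genes unequally against quantile normalization, moved the median E of all gene names in ES to −0.57. The median E of the proteasome genes in ES was then −0.83, their difference between particles at NPC −0.34, and their median total RNA changes −0.44 from ELA to NPC and −0.40 from NPC to NPC/Neu. In ES 2 names were at or above 1 and 19 at or below −1. From ES to ELA 8 names passed 1 and 0 passed −1 in E, from ELA to NPC 2 passed −1, and from NPC to NPC/Neu 1 passed −1 in E and 2 in total RNA. The total RNA change of Psmb1 from ELA to NPC reversed to −0.0824. The cause was not tested.

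Quantile normalization within each RNA type gave a median E of −0.18 in ES and −0.10 at NPC, and a difference between particles of −0.33 at NPC. It left 4 names at or below −1 in ES, 0 at NPC and 6 at NPC/Neu, and 2 at or above 1 at NPC. The processed intensity with quantile normalization put 2 names at or above 1 at ELA and 2 at NPC. It gave 4 changes of E of at least 1 from ES to ELA, and from ELA to NPC 1 such change and 2 of at most −1. In that last count, offsets of 16 and 0 gave 1 each, as did the brightest probe, which also left 0 names at or above 1 at ELA. Probes well above background left 1 name with a total RNA change of at most −1 from ES to ELA.

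With constitutive subunits only, 0 names had such a total RNA change at any transition and 1 had a change of E of at least 1 from ES to ELA. An E of at least 1 was found for 0 at ELA and 0 at NPC, and an E of at most −1 for 5 in ES, 3 at NPC and 6 at NPC/Neu. Without the probe of the Psme2 copy every result stayed within 1 spot SD or 1.5 times its count. No paired analysis was possible because each condition has 1 array. With 1 array per condition, no value has an error that covers cultures or precipitations. Ratios of dim probes (Psmb11, Psma8 after ES, Psmb8 from NPC onward) are compressed toward 0.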
